A study of Mus musculus with 13 samples.

Results

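Rab proteins are small GTPases that mark the membranes of a cell: each sits on particular vesicles or organelles and, when bound to GTP, recruits the effectors that move, tether or fuse that membrane. Exchange factors load them with GTP, GTPase-activating proteins switch them off, prenyl groups anchor them in the membrane, and GDP dissociation inhibitors (GDI) carry them between membranes. In brain they are best known for the release and recycling of synaptic vesicles and for transport along axons and dendrites.

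The Rab genes were chosen by symbol, as probe sets whose single gene symbol was Rab, a number and at most 2 further letters or digits. This took 63 genes with 139 probe sets out of 18193 named genes and 45037 probe sets. For 4 of them the product is no Rab GTPase: Rab3ip, an exchange factor, Rab5if, and the antisense transcripts Rab10os and Rab26os. Rab3ip averaged 201 ± 13.1 in creatine-fed and 189.6 ± 10.5 in untreated mice. The other 59 genes, with 132 probe sets, are the Rab GTPases described here. Each gene was read at its brightest probe set, the one with the highest mean over all 13 arrays, and its other probe sets served as further readouts.

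The samples came from male mice of the strain C3HeB/FeJ that were 10 to 12 weeks old when the diets began. In the creatine-fed group, 6 mice received pellets with 1% creatine, a compound that buffers cellular ATP, for 6 months. In the untreated group, 7 mice received pellets of equal calories without creatine. Total RNA from 1 brain hemisphere per mouse was hybridised to 1 array, so each value is an average over brain regions and cell types, and fewer cells of a type cannot be told apart from less RNA per cell.

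Array medians lay between 37 and 45 intensity units, and Pearson's r between arrays, across probe sets, ran from 0.975 to 0.987. All 8 neuronal markers lay above the array median on every array. Of 3 liver markers measured, Alb was dim, at 10.7 ± 5.09 in creatine-fed and 24.4 ± 20.5 in untreated mice. Apoa1 was dim too, at 9.67 ± 4.32 in creatine-fed and 12.6 ± 8.94 in untreated mice. Ttr was bright on every array, at 7707 ± 1355 in creatine-fed and 8057 ± 2130 in untreated mice, and its source was not tested. Tissue content differed between arrays. The summed level of 8 cerebellar markers ran from 5846 (replicate 4) to 13389 in creatine-fed and from 2528 (replicate 3) to 17174 in untreated mice. Cbln3, a gene of cerebellar granule cells, read 18 in untreated replicate 3, against 1059 or more in the other untreated mice. In creatine replicate 4 it read 523, against 775 or more in the other creatine-fed mice. Oligodendrocyte markers had a lower mean in creatine-fed mice in 6 of 7 (summed level 16479 to 18692 in creatine-fed and 18043 to 22444 in untreated mice), as did astrocyte markers in 7 of 8 (10420 to 11746 in creatine-fed and 11236 to 13679 in untreated mice). Regional markers also differed between the groups. All 7 brainstem markers measured had a lower mean in creatine-fed mice, with a median log2 difference of -0.55. Their summed level was 139 to 261 in creatine-fed and 242 to 457 in untreated mice. In limma, 3 of the 7 had an unadjusted p under 0.05, against 11.2% of all genes. The brainstem genes are dim, and none lay above the array median on all arrays. En1, a midbrain and hindbrain gene, averaged 7.5 ± 4.37 in creatine-fed and 17.9 ± 2.41 in untreated mice, with groups that did not overlap. All 7 cortical markers measured had a higher mean in creatine-fed mice, with a median of 0.07 and a summed level of 2401 to 2864 in creatine-fed and 1977 to 2814 in untreated mice. Of these, Lmo4 averaged 762 ± 75.7 in creatine-fed and 621 ± 41.2 in untreated mice, a difference of 0.29 with groups that did not overlap. An unadjusted p under 0.05 in limma was reached by 4 of 7 oligodendrocyte, 3 of 8 astrocyte, 2 of 7 cortical and 0 of 8 neuronal markers. The part of these cell type and regional shifts in the Rab values was not tested.

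Promoter windows of Rab2b, Rab12 and Rab5b are shown because these are the 3 Rab genes with a higher mean in creatine-fed mice and an unadjusted p under 0.05. Each is the 250 bases before the annotated start, 5′ to 3′ on the strand of the gene, from RefSeq (GRCm38.p6), with CpG dinucleotides in capitals. The window of Rab2b is chr14:52279396-52279645, that of Rab12 is chr17:66519671-66519920 and that of Rab5b is chr10:128696269-128696518, all on the minus strand.
Rab2b: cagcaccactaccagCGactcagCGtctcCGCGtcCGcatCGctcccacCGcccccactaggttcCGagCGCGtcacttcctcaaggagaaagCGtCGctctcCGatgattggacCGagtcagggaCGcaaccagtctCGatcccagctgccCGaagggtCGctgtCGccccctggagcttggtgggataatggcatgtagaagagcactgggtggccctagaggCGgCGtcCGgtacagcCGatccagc
Rab12: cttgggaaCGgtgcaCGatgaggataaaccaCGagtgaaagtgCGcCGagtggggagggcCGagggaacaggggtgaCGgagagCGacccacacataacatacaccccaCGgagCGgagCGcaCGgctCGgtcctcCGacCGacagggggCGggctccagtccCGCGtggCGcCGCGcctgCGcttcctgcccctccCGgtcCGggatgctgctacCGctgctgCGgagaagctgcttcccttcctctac
Rab5b: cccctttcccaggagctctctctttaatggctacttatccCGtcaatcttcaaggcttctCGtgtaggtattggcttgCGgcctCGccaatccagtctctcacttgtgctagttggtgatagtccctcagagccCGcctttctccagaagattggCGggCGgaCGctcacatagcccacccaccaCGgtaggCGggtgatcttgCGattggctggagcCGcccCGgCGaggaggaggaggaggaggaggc

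The windows hold 23 CpG in Rab2b, 26 in Rab12 and 14 in Rab5b, with a GC content of 64.0%, 67.6% and 59.2%. Of the 59 genes, 48 had a window in the RefSeq table. A window was counted as CpG-rich when its GC content was above 50% and its ratio of observed to expected CpG above 0.6, which held for 29 of 48 Rab genes (60.4%). The share was 49.3% of 14367 genes measured on the arrays and 31.2% of all 27025 genes of the table; the first of these was added after the second had been seen, and it is the closer match, since the table also holds genes not measured here. The TATA box TATAAA, searched on both strands, was in 4 Rab windows (8.33%), those of Rab39b, Rab3b, Rab42 and Rab7, against 9.0% of measured genes. The cyclic AMP response element TGACGTCA was in 2 (4.17%, against 2.28%), Rab25 and Rab5a, and the E-box CACGTG in 4 (8.33%, against 7.57%), Rab20, Rab21, Rab23 and Rab5a. None of the 3 windows printed holds any of these letters.

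No Rab GTPase passed the test between creatine-fed and untreated mice. With limma on log2(intensity + 16) and Benjamini-Hochberg adjustment over all probe sets, 0 of 59 genes had an adjusted p under 0.05, and the lowest was 0.201. Over all genes 0.0055% passed. At an unadjusted p under 0.05 there were 5 Rab genes (8.47%), against 11.2% of all genes: Rab2b, Rab5b and Rab12 were higher (background 3.58%) and Rab43 and Rab9b lower (background 7.62%). The share of Rab genes below that p was thus no larger than the background.

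The differences were small. The median log2 difference, creatine-fed minus untreated, was -0.02 over the 59 Rab genes and -0.03 over all genes, with a range of -0.30 to 0.30 for the Rab genes. A higher mean in creatine-fed mice was found for 24 Rab genes (40.7%) and 41.5% of all genes, but quantile normalization gave 29, and setting the medians of all arrays equal (centring) gave 41, so the split of directions depends on the scaling. In 50 of 59 genes the difference was within 0.2. The 95% interval lay within 0.5 on either side of 0 for 51 of 59 Rab genes, against 80.0% of all genes. 

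Of the 59 Rab genes, 46 (78.0%) lay above the array median on all arrays, against 55.6% of all genes, and 8 (13.6%) below it on all, against 32.0% (Rab20, Rab19, Rab17, Rab39, Rab25, Rab44, Rab32 and Rab7b). Among the 46, the interval was within 0.5 for 43, against 95.8% of all such genes, and the exceptions were Rab5b, Rab3b and Rab5c. The median spread within groups was 0.104 (SD, log2 scale) in these genes, against 0.131 in all genes above the array median on all arrays, which were not matched to the Rab genes in intensity.

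**Figure D1:**
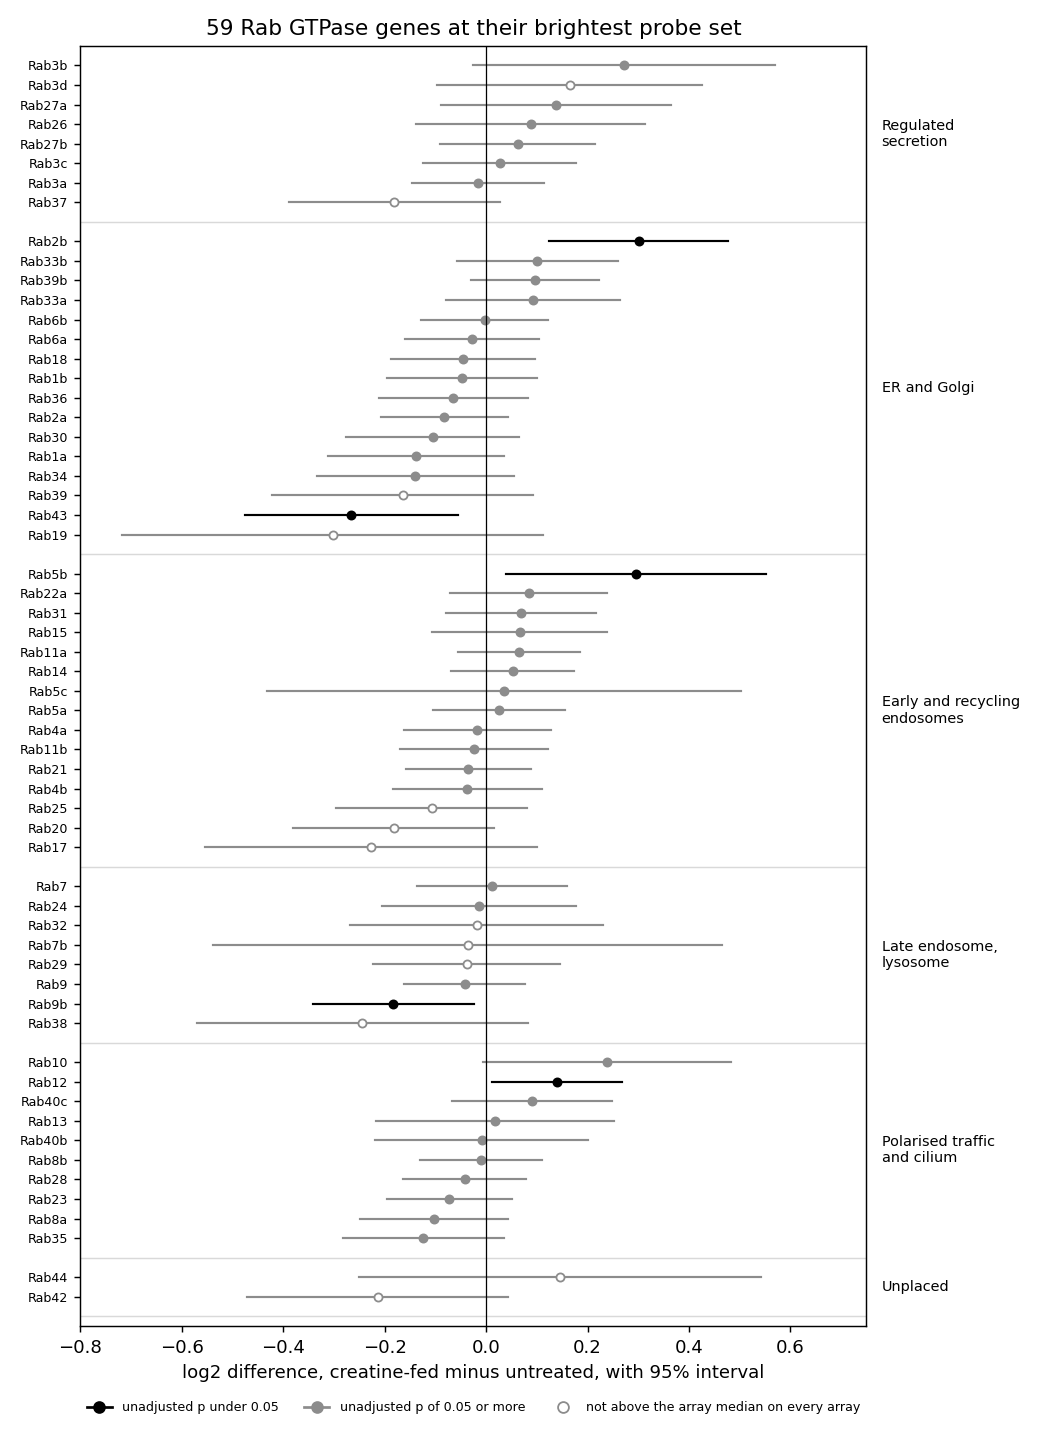
Log2 difference, creatine-fed minus untreated, of 59 Rab genes at the brightest probe set, grouped by role, with 95% intervals from limma. Black points have an unadjusted p under 0.05, open points were not above the array median on all arrays, and all differences lie between -0.30 and 0.30.

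Among the Rabs of regulated secretion, which dock and prime synaptic and secretory vesicles, 6 of 8 had a higher mean in creatine-fed mice. Quantile normalization also gave 6 and centring gave 7. The median log2 difference of the 8 was 0.07, and 0 reached an unadjusted p under 0.05 in limma, against 11.2% of all genes. Rab3a, the main Rab of synaptic vesicles, read 2462, 2535.5 and 2713 (lowest, median and highest) in creatine-fed mice and 2417, 2571 and 2902 in untreated mice. The groups overlapped, with a log2 difference of -0.02 and an interval from -0.15 to 0.11. Rab3c, a close relative on the same vesicles, averaged 1606 ± 130.2 in creatine-fed and 1574 ± 105 in untreated mice (SD, n = 6 and 7), a difference of 0.03 with an interval from -0.12 to 0.18.

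Rab3b, also of the Rab3 group, was the most variable of the 4 secretory Rabs chosen for description. It read 272, 304.5 and 377 in creatine-fed mice and 177, 263 and 372 in untreated mice. All 6 creatine-fed mice were above the untreated mean, but the groups overlapped, and the log2 difference was 0.27 ± 0.14 (SE; adjusted p = 0.471). Without untreated replicate 3, the array low in cerebellar markers, it was 0.36, past an unadjusted threshold of 0.05 in limma. The same threshold was passed after centring (0.32), with a trended, robust variance model (0.27) and with a replicate block (0.27). Under the other alternatives run it was not passed. Rab27b, which serves the exocytosis of secretory granules, averaged 249 ± 8.57 in creatine-fed and 239 ± 23.8 in untreated mice, a difference of 0.06 with an interval from -0.09 to 0.21. Another of its 4 probe sets, which ends in _x_at and may detect related transcripts, had 44.0 ± 6.29 in creatine-fed against 56.9 ± 10.2 in untreated mice, a difference of -0.27 in the opposite direction (adjusted p = 0.305).

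Among the Rabs of the endoplasmic reticulum and Golgi, 4 of 16 had a higher mean in creatine-fed mice, with a median of -0.06, but 6 after quantile normalization and 8 after centring. Rab2b, which acts on the Golgi, gave the smallest p of the family at the brightest probe sets. It read 268, 278 and 295 in creatine-fed mice and 182, 228 and 263 in untreated mice, and it was the 1 Rab gene whose groups did not overlap, which held for 0.649% of all genes. The log2 difference was 0.30 ± 0.08 (SE), with an interval from 0.12 to 0.48 and an adjusted p of 0.201 in limma.

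The probe sets of Rab2b disagreed. A second one averaged 150.3 ± 15.4 in creatine-fed and 173 ± 12.4 in untreated mice, a difference of -0.18 (adjusted p = 0.347). The other 3 differed by 0.06, 0.02 and -0.15. Over the mean of all 5 probe sets the difference was 0.01, so the direction depended on the probe set read.

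Rab43, linked to transport through the Golgi, read 66, 85.5 and 102 in creatine-fed mice and 89, 109 and 125 in untreated mice. All 6 creatine-fed mice were below the untreated mean and the groups overlapped. The log2 difference was -0.27 ± 0.10 (SE; adjusted p = 0.309), and its other probe sets differed by -0.09 and 0.01. Centring moved the difference to -0.21 and averaging the probe sets to -0.12, both with an unadjusted p above 0.05. The abundant members showed smaller differences. Rab1a, which acts between endoplasmic reticulum and Golgi, read 2989, 3174 and 3784 in creatine-fed and 3114, 3658 and 4150 in untreated mice, a difference of -0.14 with an interval from -0.31 to 0.03. Of the 3 probe sets of Rab1a, only this 1 was lower. Rab2a, the relative of Rab2b, read 2901, 2950 and 3235 in creatine-fed and 3008, 3054 and 3363 in untreated mice, a difference of -0.08 with an interval from -0.21 to 0.04, and 6 of its 7 probe sets were lower.

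The Rab6 pair, which directs transport from and back to the Golgi, held the probe set with the smallest p of all 132. At the brightest probe sets, Rab6a averaged 2966 ± 222 in creatine-fed and 3019.6 ± 112 in untreated mice, a difference of -0.03 with an interval from -0.16 to 0.10. Rab6b, a form found mainly in neurons, averaged 3459 ± 159 in creatine-fed and 3467 ± 172 in untreated mice, with an interval from -0.13 to 0.12. Both pairs of groups overlapped.

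Dimmer probe sets of the same genes differed more. One of Rab6b read 305, 415 and 494 in creatine-fed mice and 228, 286 and 329 in untreated mice, a difference of 0.49 ± 0.11 (SE; adjusted p = 0.155). One of Rab6a read 1004, 1181 and 1418 in creatine-fed mice and 1257, 1445 and 1542 in untreated mice, a difference of -0.28 ± 0.08 (SE; adjusted p = 0.21). Both overlapped between groups, and neither passed the adjusted threshold. Of the 4 probe sets of Rab6b, only the brightest had a lower mean log2 value in creatine-fed mice, while all 3 of Rab6a were lower.

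**Figure D2:**
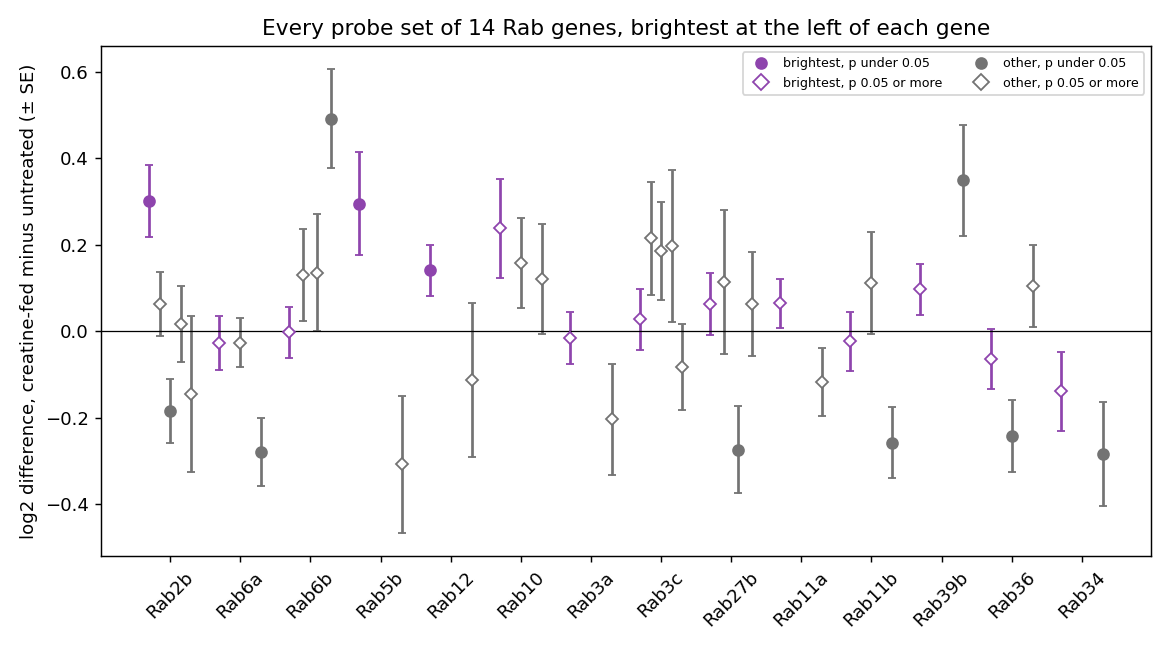
Log2 difference, creatine-fed minus untreated, with its SE, for every probe set of 14 Rab genes, the brightest on the left in purple, and filled circles for an unadjusted p under 0.05. Probe sets of one gene lie on both sides of 0 in genes such as Rab2b, whose probe sets run from -0.18 to 0.30.

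Across the family, 14 of 132 probe sets had an unadjusted p under 0.05 in limma, against 11.9% of all probe sets. Of these, 5 were higher (background 4.17%) and 9 lower (background 7.7%). None of the 132 passed the adjusted threshold, which 0.00888% of all probe sets did, and the lowest adjusted p was 0.155. Of the 73 probe sets that were not the brightest of their gene, 9 (12.3%) had an unadjusted p under 0.05. All probe sets had one direction in 17 of the 38 Rab genes with more than 1, against 40.4% of all such genes. In the other 21 of these genes the direction thus depended on the probe set read.

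Among the Rabs of early and recycling endosomes, which sort material taken up from the surface, 8 of 15 had a higher mean in creatine-fed mice, 8 after quantile normalization and 12 after centring. Rab5b, a form of the Rab that fuses early endosomes, read 117, 136.5 and 146 in creatine-fed mice and 81, 106 and 143 in untreated mice. Each of the 6 creatine-fed values exceeded the mean of the untreated group and the groups overlapped, with a difference of 0.30 ± 0.12 (SE; adjusted p = 0.354). Without untreated replicate 3, the array low in cerebellar markers, the difference was 0.25 and no longer past an unadjusted threshold of 0.05, as also without creatine replicate 6 or untreated replicate 5 or 7 (0.24 to 0.27). Its second probe set was lower in creatine-fed mice, at 52.8 ± 15.1 in creatine-fed against 68.9 ± 16.5 in untreated mice, a difference of -0.31, which did not pass the test.

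The other early endosome Rabs differed less or varied more. Rab5a averaged 1511 ± 99.5 in creatine-fed and 1482 ± 60.3 in untreated mice, a difference of 0.03. Rab5c read 199, 456 and 596 in creatine-fed and 286, 421 and 531 in untreated mice, and its interval ran from -0.43 to 0.50. The value of 199 was creatine replicate 4, the creatine-fed array lowest in cerebellar markers. Without this mouse the difference was 0.24, against 0.04 with it.

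The recycling Rabs stayed close to 0 at their brightest probe sets. Rab4a, of fast recycling, averaged 441 ± 31.5 in creatine-fed and 447 ± 30.7 in untreated mice, a difference of -0.02 with an interval from -0.16 to 0.13. Rab11a, of the slow recycling endosome, averaged 789 ± 43.8 in creatine-fed and 753 ± 20.0 in untreated mice, a difference of 0.06, while its second probe set differed by -0.12. Rab11b, its form most abundant in brain, averaged 1022 ± 84.2 in creatine-fed and 1038 ± 58.3 in untreated mice, a difference of -0.02. A second of its 3 probe sets was dim, at 23.7 ± 3.08 in creatine-fed and 31.6 ± 5.41 in untreated mice. It lay below the array median on all arrays and differed by -0.26 (adjusted p = 0.253 in limma, unadjusted p under 0.05). The third probe set of Rab11b differed by 0.11. The 3 genes did not pass the test.

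Among the Rabs of late endosomes and lysosomes, 1 of 8 had a higher mean in creatine-fed mice, but 4 after quantile normalization and 6 after centring. Rab9b, a relative of the Rab that returns receptors from late endosomes to the Golgi, read 157, 200.5 and 218 in creatine-fed mice and 212, 223 and 241 in untreated mice. All 6 creatine-fed mice were below the untreated mean and the groups overlapped, with a difference of -0.18 ± 0.07 (SE; adjusted p = 0.356). It has 1 probe set, and centring moved the difference to -0.13, no longer past an unadjusted threshold of 0.05 in limma. The same held without creatine replicate 3 or 6 or untreated replicate 7, with differences of -0.12 to -0.17. Rab7, which drives the maturation of late endosomes, averaged 1952 ± 162 in creatine-fed and 1934 ± 117 in untreated mice, with an interval from -0.14 to 0.16.

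Among the Rabs of polarised traffic and cilia, 4 of 10 had a higher mean in creatine-fed mice, 4 after quantile normalization and 7 after centring. Rab12, a Rab phosphorylated by the kinase LRRK2, read 505, 562 and 605 in creatine-fed mice and 461, 506 and 526 in untreated mice. All 6 creatine-fed mice were above the untreated mean and the groups overlapped, with a difference of 0.14 ± 0.06 (SE; adjusted p = 0.378). Its other probe set differed by -0.11, and averaging both gave 0.01. The unadjusted p was above 0.05 after quantile normalization, and when any 1 of creatine replicates 1, 3, 5 and 6 or untreated replicates 4, 5 and 7 was left out, with differences of 0.12 to 0.14.

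Rab10, another LRRK2 substrate that carries vesicles to the plasma membrane, read 442, 656 and 831 in creatine-fed mice and 512, 526 and 579 in untreated mice. The value of 442 lay below all untreated mice, while 5 of 6 lay above their mean. That value came from creatine replicate 4, the creatine-fed array lowest in cerebellar markers. The difference was 0.24 ± 0.11 (SE; adjusted p = 0.44). Without creatine replicate 4 it was 0.34, past an unadjusted threshold of 0.05 in limma. That threshold was also passed with an offset of 50, a filter on dim probe sets, centring, array weights or a trended, robust variance model. The differences in these were 0.23 to 0.29. The same held without creatine replicate 2 (0.27), but not under the other alternatives run. All 3 probe sets of Rab10 were higher in creatine-fed mice. Rab8a, its relative in membrane delivery and cilia, averaged 328 ± 14.4 in creatine-fed and 354 ± 30.9 in untreated mice, a difference of -0.10 with an interval from -0.25 to 0.04.

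**Figure D3:**
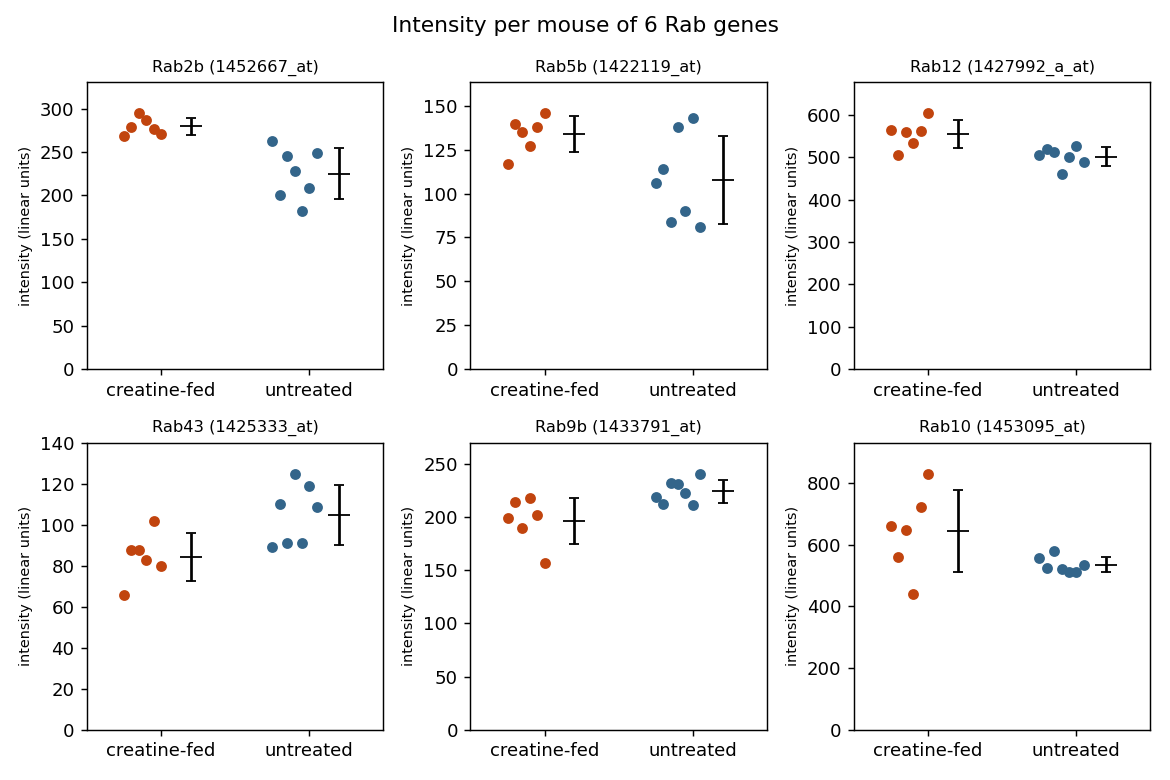
Intensity per mouse at the brightest probe set of Rab2b, Rab5b, Rab12, Rab43, Rab9b and Rab10, with mean and SD, creatine-fed mice on the left and untreated mice on the right. Of these genes only Rab2b has groups that do not overlap, and 1 creatine-fed mouse at 442 lies below all untreated mice for Rab10.

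None of the measured proteins that act on Rabs passed the test. Of 140 listed, 132 were measured, and 0 passed the adjusted threshold in limma (lowest adjusted p = 0.212). At an unadjusted p under 0.05 there were 12 (9.09%), against 11.2% of all genes. Of the 12, 8 were higher (background 3.58%) and 4 lower (background 7.62%). A higher mean was found for 67 of 132, against 41.5% of all genes, with a median of 0.00. Of the 132, 119 lay above the array median on all arrays, and 46.9% of all such genes had a higher mean. Quantile normalization gave 65 and centring gave 91, so this split also depends on the scaling. The groups were fully apart in 0 of the 132, and in 0.649% of all genes.

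Of 35 GTPase-activating proteins, 4 (11.4%) reached an unadjusted p under 0.05, a share close to the 11.2% of all genes. These 4 had a higher mean in creatine-fed mice (background 3.58%). Of the 35, 34 lay above the array median on all arrays, and 507 of 10114 such genes were higher at that p. Rab3gap1 and Rab3gap2, the catalytic and non-catalytic subunit of one complex, were both among the 4. Rab3gap2 ran from 266 to 297 in creatine-fed and from 231 to 267 in untreated mice, a difference of 0.15 ± 0.06 (SE; adjusted p = 0.305). Rab3gap1 ran from 538 to 620 in creatine-fed and from 476 to 592 in untreated mice, a difference of 0.14 ± 0.06 (adjusted p = 0.387). The ranges of both overlapped. Evi5, which acts on Rab11, averaged 845 ± 40.7 in creatine-fed and 739 ± 58.8 in untreated mice, a difference of 0.19 (adjusted p = 0.289). Tbc1d30 averaged 218.5 ± 31.7 in creatine-fed and 182 ± 25.7 in untreated mice. Only 1 of 2 probe sets of Evi5 was higher, but 2 of 2 were for Tbc1d30 and for Rab3gap2. Rab3gap1 has 1 probe set.

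Of 35 exchange factors, 3 (8.57%) reached an unadjusted p under 0.05, against 11.2% of all genes, and 14 had a higher mean. Dennd4b ran from 217 to 303 in creatine-fed and from 293 to 355 in untreated mice, a difference of -0.29 ± 0.08 (SE; adjusted p = 0.212). Mon1b, part of the exchange factor of Rab7, averaged 78.2 ± 12.9 in creatine-fed and 60.1 ± 8.32 in untreated mice, a difference of 0.30, while its other probe sets differed by -0.42 and -0.05. Dennd1b differed by -0.15 and Trappc9 by 0.17. All 4 probe sets of Dennd1b were lower, but only 1 of 3 of Trappc9 was higher. Dennd4b has 1 probe set.

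Of 52 effectors, 5 (9.62%) reached an unadjusted p under 0.05, against 11.2% of all genes. The 28 with a higher mean, against 41.5% of all genes, became 27 after quantile normalization and 38 after centring. Zfyve27, protrudin, an effector of Rab11 in neurite growth, averaged 185 ± 20.4 in creatine-fed and 221 ± 13.2 in untreated mice, a difference of -0.24 (adjusted p = 0.237). Rab11fip4, also an effector of Rab11, averaged 849 ± 82.0 in creatine-fed and 735 ± 55.9 in untreated mice, a difference of 0.20. Rilpl1 differed by 0.19 and Myo5b, a motor of recycling endosomes, by 0.23. The probe sets of these effectors disagreed. The stated direction held for 2 of 4 in Zfyve27 and in Rilpl1, and for 2 of 3 in Rab11fip4 and in Myo5b. Of 10 prenylation and GDI proteins, 0 had an unadjusted p under 0.05 in limma, against 11.2% of all genes. Fntb differed by 0.25, Rabac1 by -0.15, Rabif by 0.07 and Gdi2, a GDI, by 0.06. Only 1 of 4 probe sets of Rabif was higher, and 4 of 6 of Gdi2.

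**Figure D4:**
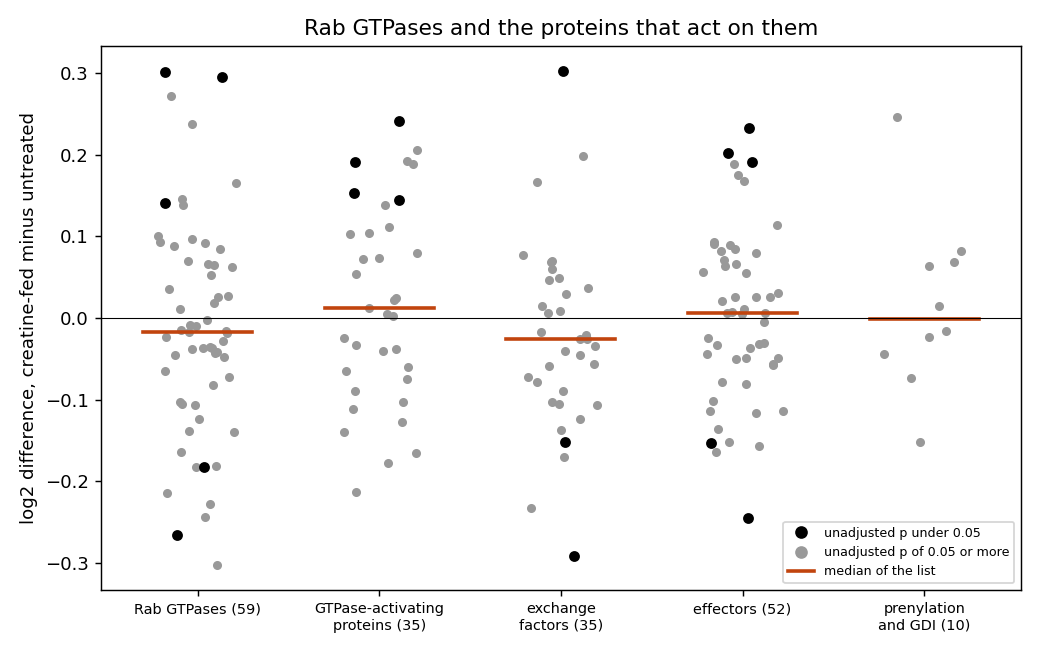
Log2 difference, creatine-fed minus untreated, of 59 Rab genes and of the 4 lists of proteins that act on them, 1 point per gene at the brightest probe set, with the median of each list. The medians lie near 0, at -0.02 for the Rab genes.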

How the data were processed

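Gene expression was measured in 1 brain hemisphere of each of 13 mice, on 1 array per mouse. The deposited values are linear intensities, 1 per probe set, as whole numbers with zeros. The submitters' processing notes name RMA, which gives log2 values, so how these intensities were made is not settled here. The mean of each array after trimming 2% was close to 150.05. After 64 control probe sets were left out, 45037 remained, of which 34945 had 1 gene symbol, 932 several and 9160 none; 34741 were matched to current symbols by Entrez ID.

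The values were transformed as log2(intensity + 16) and fitted with limma 3.58.1 in R 4.3.3 (lmFit and eBayes, no covariates, 2-sided), with Benjamini-Hochberg adjustment over all probe sets at a threshold of 0.05. The offset shrinks fold changes of dim genes. The fit was tested on simulated data. Figures were drawn with matplotlib 3.10.9. The number of arrays limits the precision. The labels call the mice biological replicates.

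The genes named were all Rab genes with an unadjusted p under 0.05, a set of well-known Rabs per role, members whose probe sets reached that p in opposite directions, and up to 4 genes with the smallest p of each list of regulators; further probe sets and 3 promoter windows were chosen after their values were seen. Members and lists were chosen with earlier results of these data known. Same-numbered mice of both groups did not deviate together (correlations from -0.0552 to 0.146), so the fit has no replicate block. The alternatives were other offsets, scalings, variance models, array weights, a filter on dim probe sets, other values per gene, and leaving out each mouse. Protein sequences were not used here.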

Additional observations from a re-analysis of the deposited data

Results flagged for a closer look

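Rab2a was flagged for 1 mouse. Creatine replicate 4, the creatine-fed array lowest in cerebellar markers, read 3235 at the brightest probe set of Rab2a. The other 5 creatine-fed mice read 2901 to 2958, and the gap was 0.829 of the range of the group. Among 42 groups of 21 named Rab genes this was the 1 such value. Chance alone gives about 1 such value in 20 groups, so 1 in 42 is no more than chance gives.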

How the results depend on the processing

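No Rab gene passed the adjusted threshold under any alternative run with limma; the lowest adjusted p was 0.0824, with a trended, robust variance model. The number of Rab genes with a higher mean was 24 as reported and 41 after centring each array. The number at an unadjusted p under 0.05 was 5 as reported, 8 with the trended, robust model, 3 with the replicate block, and 2 to 7 when each mouse was left out, with 2 without untreated replicate 7, 3 without creatine replicate 3, and 7 without untreated replicate 3. Among regulators and effectors it was 12 as reported, 7 with the replicate block, and 9 to 14 when each mouse was left out. Rab genes with groups apart numbered 1 as reported, 0 with the probe sets of a gene averaged, and 1 to 2 when each mouse was left out. Rab5b turned to -0.0063 with all its probe sets averaged, and Rab12 to -0.11 at its brightest probe set with a plain _at ending. With averaged probe sets, 6 Rab genes had an unadjusted p under 0.05 in limma, against 11.7% of all genes. They were Rab38 (-0.33), Rab39b (0.22), Rab34 (-0.21), Rab6b (0.19), Rab9b (-0.18) and Rab6a (-0.11). Of the 5 as reported, only Rab9b, which has 1 probe set, was among them. The cause of these changes was not tested, beyond the other probe sets that such values use. Rab2b had an unadjusted p under 0.05 under all alternatives run except averaged probe sets. Dim Rab genes near background limit what can be read from them.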
